A study of Mus musculus with 2 samples.

Results

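The 7 interneuron lineage transcription factors *Lhx6*, *Maf*, *Sox6*, *Satb1*, *Prox1*, *Sp8* and *Npas1* were followed across the cell classes of the embryonic mouse cortex. They were taken as a named list, 7 of the 32285 genes in the count matrices, and each passed the filter on low counts that left 15496 genes for testing. The cells came from 2 wild-type embryos at embryonic day 16.5 (E16.5), control animals of the EomesMllt3 (EoMltt3) Eomes-Cre line, which are called embryos 4 and 5 after their labels. Both belong to 1 condition, so every comparison is between cell classes of the same 2 brains. Whether these controls carried the Cre allele, and on which strain, is not given in the labels. The labels name brain hemispheres as tissue, the protocol names the dissected cortex, and the cells were dissociated with papain and captured in droplets for 3′ RNA sequencing.

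GABAergic interneurons of the cortex are born outside it, mainly in the medial and caudal ganglionic eminences (MGE and CGE) and the preoptic area of the ventral forebrain, and reach it by tangential migration. The neighbouring lateral ganglionic eminence (LGE) gives rise to striatal neurons and olfactory bulb interneurons. In the MGE lineage, *Nkx2-1* acts upstream of *Lhx6*, and *Sox6*, *Satb1* and *Maf* act later in the migrating and maturing cells, which include the future somatostatin (SST) interneurons. *Prox1* and *Sp8* are best known from CGE and LGE derivatives, whereas excitatory neurons arise in the dorsal telencephalon from radial glial cells (RGCs) through intermediate progenitor cells (IPCs).

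In the GRCm38 (mm10) assembly, *Lhx6* (ENSMUSG00000026890), a LIM-homeodomain factor, spans chr2:36081950-36105992, and *Maf* (ENSMUSG00000055435), a basic leucine zipper factor, spans chr8:115703253-115706894. *Sox6* (ENSMUSG00000051910), a factor with an HMG box, spans chr7:115470872-116040776, and *Satb1* (ENSMUSG00000023927), a chromatin organiser that binds AT-rich DNA, spans chr17:51736187-51833290. *Prox1* (ENSMUSG00000010175), a homeodomain factor, spans chr1:190118035-190170827. *Sp8* (ENSMUSG00000048562), a zinc finger factor, spans chr12:118846288-118852578, and *Npas1* (ENSMUSG00000001988), a bHLH-PAS factor, spans chr7:16455721-16476822.

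The 3 sequences printed here belong to the members with the largest fold differences between MGE-like and CGE-like cells (*Lhx6*, higher in MGE-like cells, and *Prox1* and *Sp8*, higher in CGE-like cells). Each holds the 250 bases before a transcript start in RefSeq on GRCm38, read 5′ to 3′ on the gene's strand, and is the member's window with the most motif matches before the start. Capitals mark matches to CANNTG (an E-box), TAATTA (a homeodomain core) or TGACCT (a nuclear receptor core), each searched on both strands. The windows of *Lhx6* and *Sp8* lie before an alternative start, inside the gene's outer bounds.
*Lhx6*, chr2:36105409-36105658, minus strand: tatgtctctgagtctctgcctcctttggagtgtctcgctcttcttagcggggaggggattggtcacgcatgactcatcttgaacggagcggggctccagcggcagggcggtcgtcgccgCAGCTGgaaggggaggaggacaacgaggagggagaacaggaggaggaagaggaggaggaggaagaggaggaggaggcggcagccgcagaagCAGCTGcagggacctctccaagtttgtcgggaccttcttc
*Prox1*, chr1:190170828-190171077, minus strand: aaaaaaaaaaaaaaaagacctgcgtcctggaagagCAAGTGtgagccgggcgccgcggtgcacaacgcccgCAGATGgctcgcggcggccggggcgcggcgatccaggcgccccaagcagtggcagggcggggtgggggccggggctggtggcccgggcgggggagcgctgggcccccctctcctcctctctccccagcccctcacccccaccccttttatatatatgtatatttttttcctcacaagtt
*Sp8*, chr12:118846983-118847232, plus strand: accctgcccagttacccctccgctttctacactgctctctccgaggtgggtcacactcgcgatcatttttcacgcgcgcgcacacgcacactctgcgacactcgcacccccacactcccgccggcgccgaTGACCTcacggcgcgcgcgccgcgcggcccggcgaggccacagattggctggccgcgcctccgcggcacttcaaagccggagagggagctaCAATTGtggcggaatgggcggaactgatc
The *Lhx6* and *Prox1* stretches hold 2 CANNTG matches each, and that of *Sp8* holds 1 CANNTG and 1 TGACCT match. Over all 20 RefSeq windows of 6 members (*Maf* had no entry), from 250 bases before to 50 bases after each start, CANNTG occurred in 14, TGACCT in 4 and TAATTA in 1. Among all 32851 windows of that length, CANNTG occurred in 72.3%, TGACCT in 16.3% and TAATTA in 5.29%, close to the members' shares.

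The libraries held 12825 and 12289 barcodes with 124318613 and 117679925 unique molecular identifiers (UMIs), and 9932 and 10416 cells were kept, with a median of 10035.5 and 8825.5 UMIs. The libraries shared 46 barcodes, 26 of them among kept cells. Clustering without the 7 members and 17 related factors gave 31 clusters. The MGE-like (690 and 653 cells), CGE-like (186 and 152 cells) and LGE-type-like classes (511 and 474 cells) were 1 cluster each, and 13 clusters were excitatory neurons (5651 and 6052 cells). In both embryos, 5 of 6 MGE markers (all but *Grin3a*) were highest in MGE-like cells, 5 of 6 CGE markers in CGE-like cells (*Vip* had no UMI in the 3 GABAergic classes) and 8 of 8 LGE-type markers in LGE-type-like cells. These lists had also named the classes, by a scoring rule set after the clusters were seen. The counts thus describe the labels and do not check them. The LGE-type-like class was also not uniform. Clustered again, its cells fell mainly into groups led by *Zic4*, *Zfp385b*, *Gnrh1* and *Ebf1*, which are described below. A *Gad1* or *Gad2* UMI was present in 455 and 452 LGE-type-like cells, and in 687 and 648 MGE-like cells. Values of the LGE-type-like class are thus values of a mixture, and whether each group fits the label was not tested. The border between CGE-like and LGE-type-like cells was not sharp. Summed CGE markers reached 8734 and 10365 CPM (UMIs scaled to the total UMIs of the class) in CGE-like cells, 2205 and 2261 CPM in LGE-type-like cells and 194 and 116 CPM in MGE-like cells, and *Adarb2*, a CGE marker, was among the 10 leading genes of the LGE-type-like cluster. Other filters on detected genes, keeping doublets and clustering with the members enlarged the CGE-like class to between 277 and 409 cells per embryo, the other choices that gave the class left it at between 138 and 189, and the coarsest clustering gave no CGE-like class at all. Excitatory neuron markers summed to 54.7 and 30.2 CPM in MGE-like cells against 1944 and 1901 CPM in excitatory neurons, and their part in the values of the members was not tested. Of these 6 markers, 3 were highest in excitatory neurons in both embryos (not *Slc17a6*, *Emx1* and *Nrn1*). IPC-like cells held 1251 and 1219 CPM of the same list.

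UMIs were summed per embryo and class and are given as CPM, so that the embryo is the unit (n = 2) and cells are not replicates. Differences were tested with edgeR's quasi-likelihood test on those sums, with Benjamini-Hochberg adjustment over all genes tested and an adjusted p under 0.05 taken as a call. The errors of log2 fold changes are standard errors (SE) worked back from this test, which gives none itself. For each, the square root of the F statistic was taken, and the unsigned log2 fold change was divided by it. CPM values describe 1 gene across classes and are not compared between genes.

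**Figure D1:**
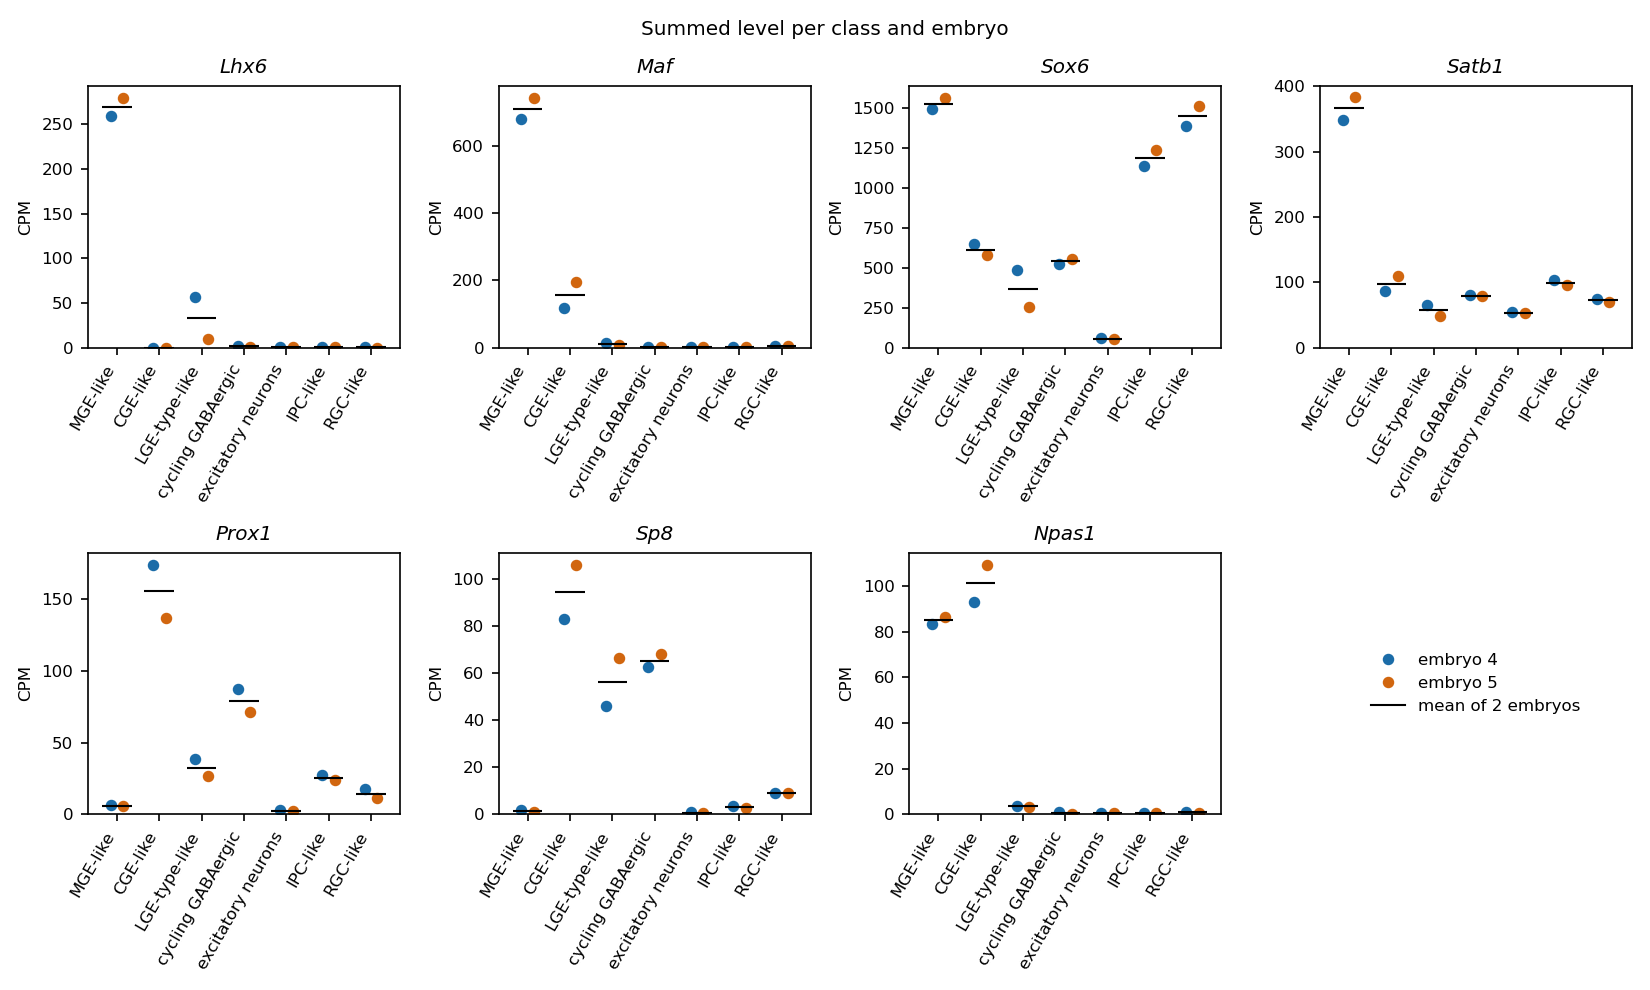
Summed level (CPM) of each of the 7 transcription factors in 7 cell classes of E16.5 cortex, with 1 point per embryo and a bar at the mean. *Lhx6* and *Maf* stand highest in MGE-like cells, *Prox1* and *Sp8* in CGE-like cells, *Npas1* stands high in both, and *Sox6* overlaps between RGC-like and MGE-like cells.

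*Lhx6*, which is required for the specification and migration of MGE interneurons, was high in MGE-like cells and had no UMI in CGE-like cells. It reached 259.9 CPM in embryo 4 and 279 CPM in embryo 5 in MGE-like cells (269 ± 13.5 CPM, SD, n = 2), 56.5 and 9.84 CPM in LGE-type-like cells, and 0 UMIs in the CGE-like cells of both embryos. Excitatory neurons held 0.772 and 0.50 CPM, IPC-like cells 0.934 and 0.644 CPM, and RGC-like cells 0.805 and 0.271 CPM. The MGE-like values lay far above those of the other classes listed, and within LGE-type-like cells the embryos were far apart. Against excitatory neurons *Lhx6* was 393-fold higher in MGE-like cells (log2 8.62 ± 0.48 SE, edgeR adjusted p = 3.49e-08). Against CGE-like cells it was at least 168-fold higher (edgeR adjusted p = 0.000183), with the floor of 3 UMIs over both embryos standing at 1.60 CPM. Within 1 embryo, where 3 UMIs are worth 3.07 and 3.35 CPM, the bounds were 84.6-fold in embryo 4 and 83.3-fold in embryo 5. With doublets kept, CGE-like cells did hold *Lhx6* UMIs, and the log2 difference was 6.45 (edgeR adjusted p = 5.35e-05).

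The *Lhx6* level of LGE-type-like cells rested on embryo 4 and on 1 group of cells. The class was 8.23-fold below MGE-like cells (log2 3.04 ± 0.39 SE for MGE-like over LGE-type-like, edgeR adjusted p = 0.000146), and this log2 difference was 4.91 without embryo 4 and 2.27 without embryo 5. Over excitatory neurons LGE-type-like cells were 47.7-fold higher (log2 5.58 ± 0.55 SE, edgeR adjusted p = 8.78e-06), with 4.11 without embryo 4 and 6.01 without embryo 5. Of the 259 *Lhx6* UMIs of LGE-type-like cells (228 in embryo 4 and 31 in embryo 5), most came from a sub-cluster led by *Gnrh1*, which held 225 (1 of its 207 cells was MGE-like). That sub-cluster made up 32.3% of LGE-type-like cells in embryo 4 and 8.86% in embryo 5. The sub-cluster was picked for leaving out by its high *Lhx6* level, so a lower class level without it was set in advance. Without this sub-cluster, the log2 difference was 5.31 below MGE-like cells and 3.34 above excitatory neurons (edgeR adjusted p = 0.000396). At a Leiden resolution of 2, the log2 difference below MGE-like cells was 9.74, and LGE-type-like cells no longer differed from excitatory neurons by the test (log2 -1.05, edgeR adjusted p = 0.615). LGE-type-like cells were at least 22.5-fold above CGE-like cells over both embryos (edgeR adjusted p = 0.035), with bounds of 18.4-fold in embryo 4 and 2.94-fold in embryo 5 against each embryo's own floor. This call was lost in a fit of only the 2 classes (edgeR adjusted p = 0.0767), without the *Gnrh1* sub-cluster (0.0706) and at a Leiden resolution of 2 (0.915).

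*Maf*, a factor of postmitotic MGE interneurons, was graded across the 3 GABAergic classes. MGE-like cells held 681 and 741 CPM (711 ± 42.5), CGE-like cells 118 and 195 CPM (156 ± 54.8) and LGE-type-like cells 13.6 and 9.84 CPM (11.7 ± 2.68, SD, n = 2). The classes did not overlap, and excitatory neurons stood at 2.65 and 1.67 CPM. *Maf* was 4.82-fold higher in MGE-like than in CGE-like cells (log2 2.27 ± 0.20 SE, edgeR adjusted p = 9.87e-06) and 63.3-fold higher than in LGE-type-like cells (log2 5.98 ± 0.25 SE, edgeR adjusted p = 4.28e-09). CGE-like cells in turn were 13.1-fold above LGE-type-like cells (log2 3.72 ± 0.28 SE, edgeR adjusted p = 2.88e-06; 4.34 without embryo 4 and 3.07 without embryo 5) and 64.0-fold above excitatory neurons (log2 6.0 ± 0.26 SE, edgeR adjusted p = 2.64e-09; 6.73 without embryo 4 and 5.26 without embryo 5). Against excitatory neurons, MGE-like cells stood 309-fold higher (log2 8.27 ± 0.24 SE, edgeR adjusted p = 4.03e-11). LGE-type-like cells were 4.87-fold above excitatory neurons (log2 2.28 ± 0.33 SE, edgeR adjusted p = 0.000159), a call that was lost at a Leiden resolution of 2 (log2 1.09, edgeR adjusted p = 0.231). Across the alternatives with both embryos, the log2 difference reached 3.32 between MGE-like and CGE-like cells and ranged from 4.21 to 7.28 between MGE-like and LGE-type-like cells, from 2.02 to 5.02 between CGE-like and LGE-type-like cells, down to 4.86 between CGE-like cells and excitatory neurons and up to 4.11 between LGE-type-like cells and excitatory neurons. Summed MGE markers were 157 and 173 CPM in CGE-like cells against 6638 and 6844 CPM in MGE-like cells, and the part of such cells in the CGE-like *Maf* level was not tested.

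*Sox6*, which acts downstream of *Lhx6* in MGE interneurons and is also present in dorsal progenitors, was high in MGE-like cells and in the progenitors of the excitatory lineage. It stood at 1493 and 1562 CPM in MGE-like cells (1528 ± 49.1), 1389 and 1510 CPM in RGC-like cells (1450 ± 85.3) and 1138 and 1239 CPM in IPC-like cells (1188 ± 71.5, SD, n = 2). CGE-like cells held 648 and 581 CPM, LGE-type-like cells 486 and 256 CPM and excitatory neurons 58.9 and 52.4 CPM. The *Gnrh1* sub-cluster held 1954 *Sox6* UMIs, against 1961 and 805 in all LGE-type-like cells of the 2 embryos. The MGE-like and RGC-like values overlapped, and their difference did not pass the test (log2 0.23 ± 0.20 SE, edgeR adjusted p = 0.322). Within the excitatory lineage the level stood at 133 and 135 CPM in immature excitatory neurons and between 2.65 and 16.9 CPM in layer 5, layer 6 and upper-layer neurons. *Sox6* was 2.63-fold higher in MGE-like than in CGE-like cells (log2 1.40 ± 0.21 SE, edgeR adjusted p = 0.000835), 4.37-fold higher than in LGE-type-like cells (log2 2.13 ± 0.21 SE, edgeR adjusted p = 8.48e-06) and 25.9-fold higher than in excitatory neurons (log2 4.69 ± 0.23 SE, edgeR adjusted p = 3.71e-09; between 3.33 with doublets kept and 5.54 with at least 1500 detected genes). Without the *Gnrh1* sub-cluster the log2 difference between MGE-like and LGE-type-like cells was 3.27, and it was 3.36 at a Leiden resolution of 2. LGE-type-like cells lay 3.74-fold below RGC-like cells (log2 -1.90 ± 0.21 SE, edgeR adjusted p = 3.14e-06; -2.50 without embryo 4, -1.45 without embryo 5 and -3.11 without the *Gnrh1* sub-cluster). CGE-like exceeded LGE-type-like cells by 1.66-fold (log2 0.73 ± 0.21 SE, edgeR adjusted p = 0.0413), but the call was lost under 7 alternatives, and the difference was -0.00385 with at least 1500 detected genes per cell and -0.0741 with the members among the clustered genes. It rose to 1.88 without the *Gnrh1* sub-cluster (edgeR adjusted p = 1.06e-06) and to 1.98 at a Leiden resolution of 2 (edgeR adjusted p = 5.5e-07).

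*Satb1*, needed for the maturation of MGE interneurons, SST cells in particular, was highest in MGE-like cells and present at lower levels in the other classes listed. It reached 348 and 383 CPM in MGE-like cells (366 ± 24.8, SD, n = 2), 87.0 and 109 CPM in CGE-like cells, 66.2 and 48.3 CPM in LGE-type-like cells and 54.6 and 53.1 CPM in excitatory neurons. IPC-like cells, at 104 and 95.6 CPM, overlapped with CGE-like cells. Within the excitatory lineage, immature neurons held 95.6 and 93.0 CPM, layer 6 neurons 55.0 and 65.6 CPM, upper-layer neurons 25.9 and 33.5 CPM and layer 5 neurons 10.5 and 13.4 CPM, so the layer 5 class was lowest in both embryos. MGE-like cells were 3.95-fold above CGE-like cells (log2 1.98 ± 0.15 SE, edgeR adjusted p = 2.26e-06), 6.74-fold above LGE-type-like cells (log2 2.75 ± 0.14 SE, edgeR adjusted p = 1.67e-08) and 6.41-fold above excitatory neurons (log2 2.68 ± 0.12 SE, edgeR adjusted p = 1.91e-09). CGE-like cells were 1.62-fold above excitatory neurons (log2 0.70 ± 0.16 SE, edgeR adjusted p = 0.00617), a call lost with at least 500 detected genes per cell (edgeR adjusted p = 0.0784) and with doublets kept (edgeR adjusted p = 0.0534). The 1.70-fold excess over LGE-type-like cells (log2 0.77 ± 0.17 SE, edgeR adjusted p = 0.0112) was lost under 3 alternatives, with an adjusted p of 0.127, 0.17 and 0.358. LGE-type-like cells did not differ from excitatory neurons by the test (log2 -0.07 ± 0.13 SE, edgeR adjusted p = 0.74), although without the *Gnrh1* sub-cluster they were lower (log2 -0.41, edgeR adjusted p = 0.0232).

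*Prox1*, a homeodomain factor that acts in CGE interneurons, was highest in CGE-like cells and, among the GABAergic classes, lowest in MGE-like cells. It stood at 174 and 137 CPM in CGE-like cells (156 ± 26.0), 87.4 and 71.3 CPM in cycling GABAergic cells, 38.4 and 26.7 CPM in LGE-type-like cells (32.6 ± 8.31) and 6.17 and 5.75 CPM in MGE-like cells (5.96 ± 0.29, SD, n = 2). These 4 classes did not overlap; the IPC-like level (27.6 and 23.7 CPM) overlapped with the LGE-type-like level. CGE-like cells were 24.6-fold above MGE-like cells (log2 -4.62 ± 0.31 SE for MGE-like over CGE-like, edgeR adjusted p = 7.3e-07), 4.74-fold above LGE-type-like cells (log2 2.25 ± 0.25 SE, edgeR adjusted p = 5.93e-05) and 53.7-fold above excitatory neurons (log2 5.75 ± 0.26 SE, edgeR adjusted p = 3.68e-09). With doublets kept, the log2 values against MGE-like cells and excitatory neurons were -3.50 and 4.72. In LGE-type-like cells *Prox1* was 5.19-fold above MGE-like cells (log2 -2.38 ± 0.33 SE for MGE-like over LGE-type-like, edgeR adjusted p = 0.000183), a call lost when doublets were kept (log2 -1.25, edgeR adjusted p = 0.0721), while the value was -3.12 at a resolution of 2. At a resolution of 0.6 it was -3.30, but there was no CGE-like class there and LGE-type-like cells numbered 720 and 655. MGE-like cells were 2.18-fold above the 3.15 and 1.99 CPM of excitatory neurons (log2 1.12 ± 0.37 SE, edgeR adjusted p = 0.032), and this call was lost under 5 alternatives, with an adjusted p between 0.0818 and 0.259.

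*Sp8*, a zinc finger factor of CGE-derived and olfactory bulb interneurons, was shared by CGE-like, cycling GABAergic and LGE-type-like cells. In MGE-like cells it was near the level of excitatory neurons. CGE-like cells held 82.9 and 106 CPM (94.4 ± 16.3), cycling GABAergic cells 62.5 and 68.1 CPM, LGE-type-like cells 46.1 and 66.4 CPM (56.2 ± 14.3) and MGE-like cells 1.91 and 0.921 CPM (1.42 ± 0.70, SD, n = 2), the last from 9 and 4 UMIs. RGC-like cells stood at 8.86 and 9.21 CPM and excitatory neurons at 0.835 and 0.467 CPM. The cycling and LGE-type-like values overlapped, and MGE-like cells lay close to excitatory neurons, with no call between them (log2 1.04 ± 0.60 SE, edgeR adjusted p = 0.208) unless doublets were kept (log2 1.86, edgeR adjusted p = 3.19e-05). CGE-like cells were 61.8-fold above MGE-like cells (log2 -5.95 ± 0.38 SE for MGE-like over CGE-like, edgeR adjusted p = 5.52e-07; -6.78 without embryo 4 and -5.32 without embryo 5). LGE-type-like cells were 36.4-fold above MGE-like cells (log2 -5.19 ± 0.36 SE for MGE-like over LGE-type-like, edgeR adjusted p = 3.92e-07; -6.07 without embryo 4 and -4.51 without embryo 5). Over excitatory neurons, *Sp8* was 127-fold higher in CGE-like cells (log2 6.99 ± 0.30 SE, edgeR adjusted p = 2.44e-09; 7.67 without embryo 4 and 6.41 without embryo 5) and 74.9-fold higher in LGE-type-like cells (log2 6.23 ± 0.26 SE, edgeR adjusted p = 1.54e-09; 6.96 without embryo 4 and 5.61 without embryo 5). Across the alternatives with both embryos, the log2 value ranged from -6.68 to -4.82 for MGE-like over CGE-like cells, from -6.00 to -2.63 for MGE-like over LGE-type-like cells and from 4.49 to 7.15 for LGE-type-like cells over excitatory neurons, with the smallest size in each case when doublets were kept. CGE-like and LGE-type-like cells differed by log2 0.76 ± 0.24 SE (edgeR adjusted p = 0.0575). It passed the test without the filter on low counts (adjusted p = 0.0028). The log2 difference was between 2.14 and 2.40 under the 4 alternatives with a larger CGE-like class. At a Leiden resolution of 2 it was -0.09, with 189 and 151 CGE-like cells and 209 and 340 LGE-type-like cells. The cause of these moves was not tested.

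*Npas1*, a bHLH-PAS repressor known from interneurons, was the member that MGE-like and CGE-like cells shared. It stood at 83.6 and 86.5 CPM in MGE-like cells (85.1 ± 2.10), 93.1 and 109 CPM in CGE-like cells (101 ± 11.5) and 3.72 and 3.18 CPM in LGE-type-like cells (3.45 ± 0.38, SD, n = 2). No other named class with at least 20 cells in each embryo had a mean above 1.67 CPM, and cells left unnamed held 10.6 and 1.84 CPM (9 and 1 UMIs). The MGE-like and CGE-like values lay close together, and their difference did not pass the test (log2 -0.17 ± 0.14 SE, edgeR adjusted p = 0.611). With a larger CGE-like class the sign changed, to 0.88 with at least 500 detected genes, 0.84 with at least 1500 and 0.85 with the members among the clustered genes, each past the threshold, and to 0.30 with doublets kept (edgeR adjusted p = 0.256). Against LGE-type-like cells, *Npas1* was 25.9-fold higher in MGE-like cells (log2 4.70 ± 0.20 SE, edgeR adjusted p = 5.11e-09) and 29.1-fold higher in CGE-like cells (log2 4.86 ± 0.22 SE, edgeR adjusted p = 4.79e-08). Against excitatory neurons (0.725 and 0.717 CPM) it was 110-fold higher in MGE-like cells (log2 6.78 ± 0.16 SE, edgeR adjusted p = 6.6e-12), 124-fold higher in CGE-like cells (log2 6.95 ± 0.19 SE, edgeR adjusted p = 5.63e-11) and 4.24-fold higher in LGE-type-like cells (log2 2.09 ± 0.33 SE, edgeR adjusted p = 0.000293). At a Leiden resolution of 0.6, which gave no CGE-like class and 720 and 655 LGE-type-like cells, MGE-like over LGE-type-like cells fell to log2 1.96 and LGE-type-like cells over excitatory neurons reached 4.78. With a larger CGE-like class, the CGE-like values were between 3.73 and 3.99 over LGE-type-like cells and between 5.90 and 6.05 over excitatory neurons.

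The calls were then counted by comparison. Between MGE-like and CGE-like cells, 4 of 7 members (*Lhx6*, *Maf*, *Sox6* and *Satb1*) were called higher, where 3.65% of the 15496 genes were, and 2 of 7 (*Prox1* and *Sp8*) were called lower, where 3.12% were. The median log2 fold change was 1.40 over the members, with *Lhx6* at its bound, and 0.06 over all genes. Between MGE-like and LGE-type-like cells, 5 of 7 were higher (background 7.63%) and 2 of 7 lower (11.5%), with a median of 2.75 against -0.01 over all genes. Between CGE-like and LGE-type-like cells, 5 of 7 were higher (3.92%) and *Lhx6* was lower (7.18%), with a median of 0.77 against -0.07. Across the alternatives the count of members called higher ranged from 4 to 5, stayed at 5 and ranged from 4 to 6, respectively, and the count called lower stayed at 2, ranged from 1 to 2 and from 0 to 1.

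Against excitatory neurons, 6 of 7 members were called higher in MGE-like cells (all but *Sp8*), where 14.9% of all genes were. In CGE-like cells 6 of 7 were higher (all but *Lhx6*; background 8.18%) and in LGE-type-like cells 6 of 7 (all but *Satb1*; background 14.1%). No member was called lower in any of the 3 comparisons, where 20.2%, 14.7% and 15.2% of all genes were. The median log2 fold change was 4.69 in MGE-like cells, 5.87 in CGE-like cells (over the 6 members without *Lhx6*) and 2.57 in LGE-type-like cells, against -0.03, -0.10 and -0.03 over all genes. These 3 comparisons share the excitatory neuron sums.

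RGC-like cells, the progenitors of the excitatory lineage, were a further reference. Against them, in MGE-like cells 4 of 7 members were higher (background 34.5%) and *Prox1* and *Sp8* lower (32.7%). In CGE-like cells 5 of 7 were higher (24.4%) and *Sox6* was lower (26.3%), and in LGE-type-like cells 5 of 7 were higher (34%) and *Sox6* was lower (29.6%). *Maf* was 153-fold higher in MGE-like cells (log2 7.26 ± 0.24 SE, edgeR adjusted p = 3.43e-11) and 31.7-fold higher in CGE-like cells (log2 4.99 ± 0.26 SE, edgeR adjusted p = 6.35e-09). Across the alternatives with both embryos these *Maf* values fell to 6.63 and 3.84, both with doublets kept. *Sox6* was 2.25-fold lower in CGE-like than in RGC-like cells (log2 -1.17 ± 0.21 SE, edgeR adjusted p = 0.000384; -1.76 with at least 1500 detected genes). *Sp8* was 10.9-fold higher in CGE-like cells (log2 3.45 ± 0.25 SE, edgeR adjusted p = 1.3e-07) and 5.64-fold lower in MGE-like cells (log2 -2.50 ± 0.44 SE, edgeR adjusted p = 0.000222; -3.16 without embryo 4, -2.07 without embryo 5 and -1.15 with doublets kept). *Lhx6* was 546-fold higher in MGE-like cells (log2 9.09 ± 0.58 SE, edgeR adjusted p = 3.39e-08; 10.12 without embryo 4, 8.45 without embryo 5 and 7.41 with doublets kept). *Npas1* was 119.9-fold higher in CGE-like cells (log2 6.91 ± 0.22 SE, edgeR adjusted p = 7.35e-11; 7.57 without embryo 4, 6.36 without embryo 5 and between 5.72 and 5.97 with a larger CGE-like class). In LGE-type-like cells the calls of *Lhx6* (log2 6.05; 5.20 without embryo 4, 6.18 without embryo 5) and *Maf* (log2 1.27) were lost at a Leiden resolution of 2 (log2 -0.55 and -0.05), and that of *Maf* also without the *Gnrh1* sub-cluster (log2 0.35, edgeR adjusted p = 0.519) and in cells with a *Gad1* or *Gad2* UMI (edgeR adjusted p = 0.0521). With doublets kept, the calls of *Prox1* were lost in MGE-like cells (edgeR adjusted p = 0.14, and 0.0502 with at least 1500 detected genes) and in LGE-type-like cells (edgeR adjusted p = 0.206). The call of *Satb1* in CGE-like cells (log2 0.50 ± 0.16 SE, edgeR adjusted p = 0.0186) was lost under 5 alternatives, with an adjusted p between 0.0551 and 0.448.

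**Figure D2:**
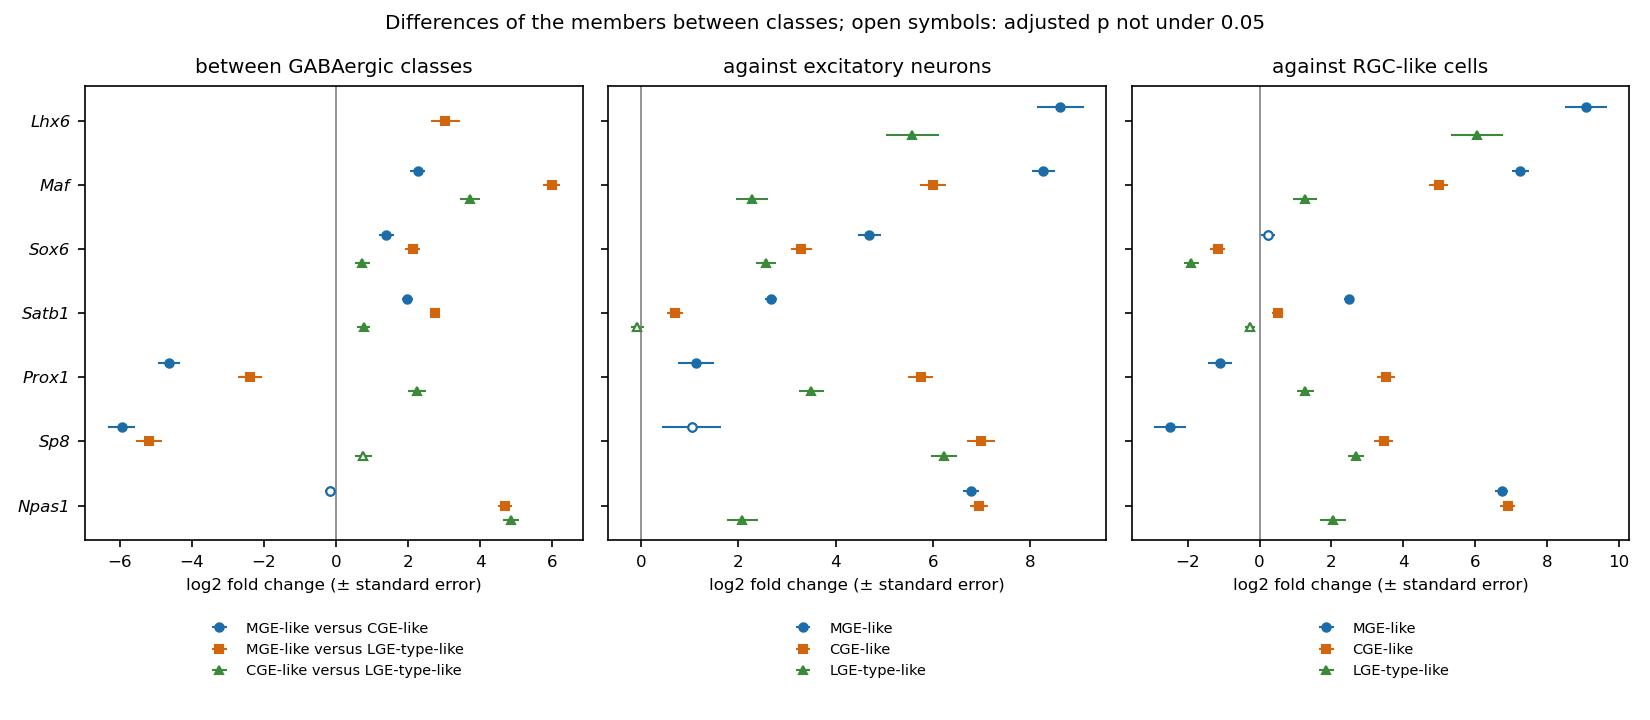
Log2 fold change (horizontal axis, ± SE) of each member between GABAergic classes, against excitatory neurons and against RGC-like cells. Values are from edgeR's quasi-likelihood test on sums of 2 embryos, with the SE worked back from its F statistic. Filled symbols have an adjusted p under 0.05, and *Lhx6* is not drawn where CGE-like cells, at 0 UMIs, are compared; *Prox1* and *Sp8* lie left of 0 in both MGE-like comparisons between GABAergic classes, whereas *Maf*, *Sox6* and *Satb1* lie right.

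The share of cells with a UMI was read at a matched depth of 2000 UMIs per cell. *Lhx6* was seen in 38.4% (exact 95% binomial interval 34.8 to 42.2%) and 40.8% (37.0 to 44.7%) of MGE-like cells, *Maf* in 70.4% and 73.6%, *Sox6* in 85.6% and 85.7%, and *Satb1* in 41.5% and 43.6%. In excitatory neurons, the shares were 0.142% and 0.149% for *Lhx6* and 0.551% and 0.232% for *Maf*. The part of free RNA and counting noise in these shares was not tested. The median depth before thinning was 6425 and 6387 UMIs in MGE-like cells and 10762 and 9425.5 UMIs in excitatory neurons. In CGE-like cells (4120 and 5754 UMIs) *Lhx6* was seen in 0 of 180 and 0 of 146 cells, which, at a limit of 3 cells of the total, allows a share of cells with a UMI at this depth of up to 1.67% and 2.05%.

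For *Prox1*, 21.7% (15.9 to 28.4%) and 19.2% (13.1 to 26.5%) of CGE-like cells had a UMI, against 7.52% and 3.32% of LGE-type-like cells, 0.589% and 0.775% of MGE-like cells and 0.498% and 0.331% of excitatory neurons. The MGE-like share of *Prox1* was thus near that of excitatory neurons, although the summed level was called higher in MGE-like cells (edgeR adjusted p = 0.032). *Sp8* was seen in 15.6% and 19.2% of CGE-like cells, 10.5% and 13.1% of LGE-type-like cells and 0.295% and 0.155% of MGE-like cells. *Npas1* was seen in 10.3% (8.13 to 12.8%) and 14.0% (11.4 to 16.9%) of MGE-like cells and in 12.8% (8.28 to 18.6%) and 19.2% (13.1 to 26.5%) of CGE-like cells, with overlapping intervals. *Maf* in CGE-like cells differed between embryos, at 10.6% (6.48 to 16.0%) and 25.3% (18.5 to 33.2%). Between 6 and 27 cells per class and embryo were shallower than 2000 UMIs and left out, in the 3 GABAergic classes and excitatory neurons. At full depth, 72.5% and 74.9% of MGE-like cells held *Lhx6* and 39.8% and 32.9% of CGE-like cells held *Prox1*. The intervals cover counting error only.

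**Figure D3:**
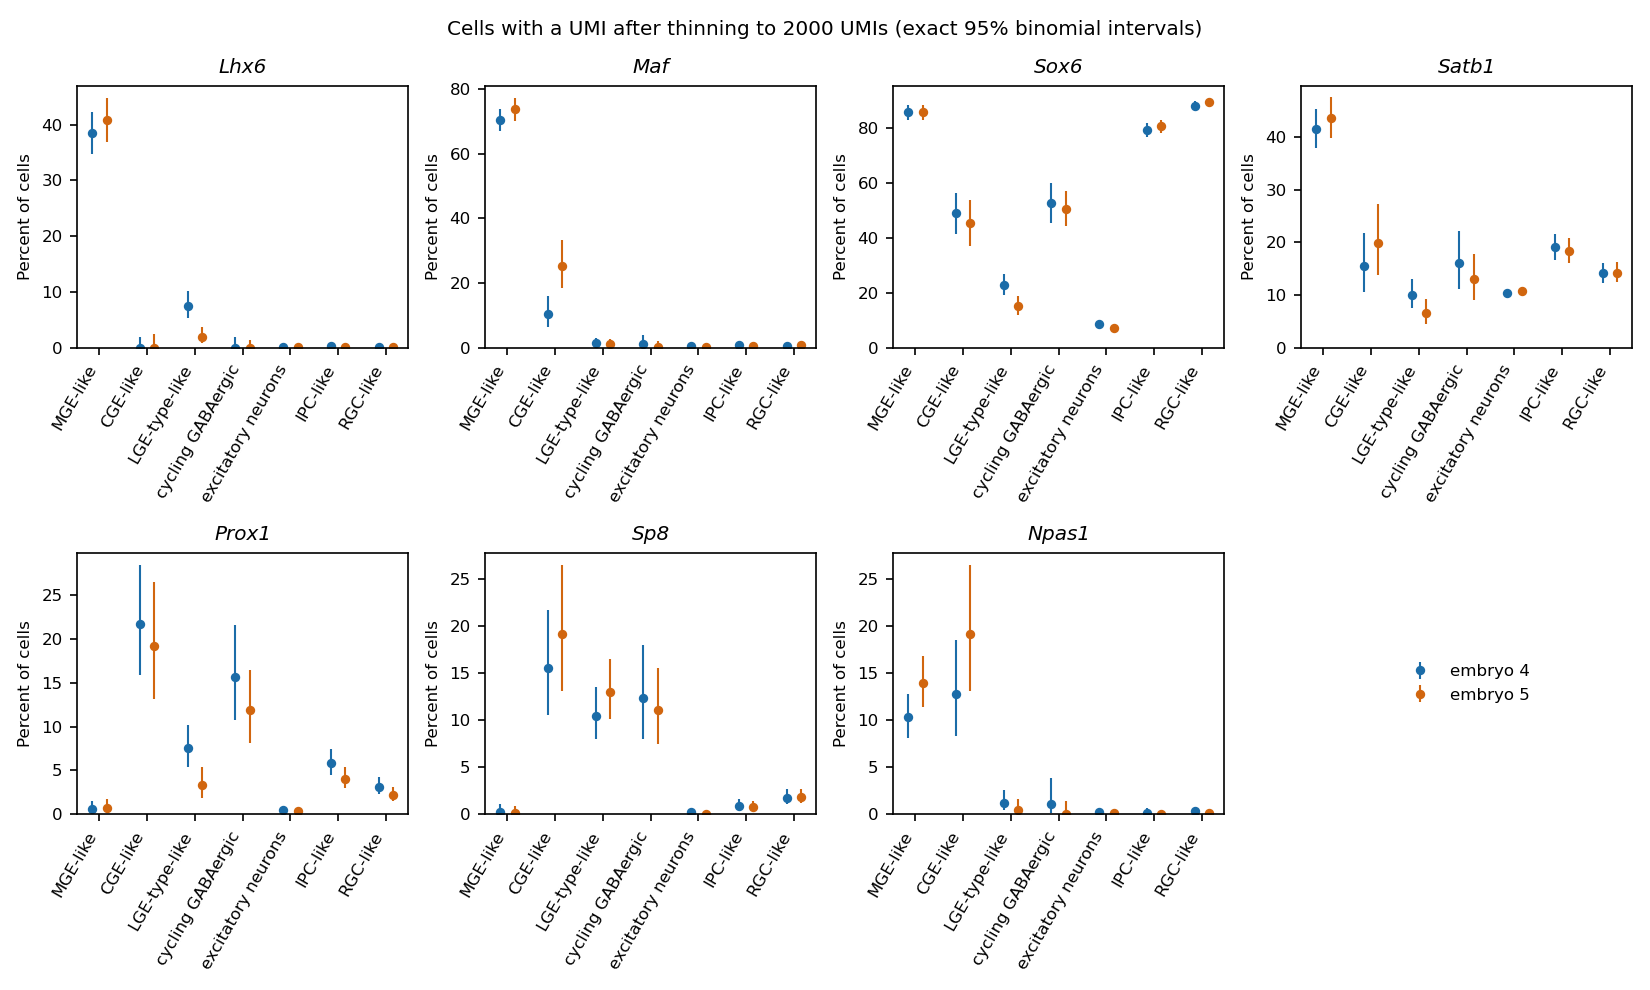
Percent of cells with at least 1 UMI of each member after every cell was thinned to 2000 UMIs, by class and embryo, with exact 95% binomial intervals that cover counting error only. *Lhx6* and *Maf* are seen mainly in MGE-like cells and *Prox1* mainly in CGE-like cells, while *Sp8* is seen in CGE-like, cycling GABAergic and LGE-type-like cells.

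The members also varied inside the classes. The GABAergic cells were clustered again, again without the members, and each sub-cluster is called by its leading gene. The 3 pairs compared here were chosen after the levels had been seen. Their adjusted p-values and counts of calls thus describe these pairs and do not test the members against all genes. MGE-like cells fell into a group led by *Ackr3*, a chemokine receptor used by migrating interneurons (433 and 380 cells), a group led by *Mkx* (233 and 254 cells) and a small group led by *Sst* (21 and 19 cells). *Npas1* stood at 38.4 and 51.8 CPM in the *Ackr3* group and 150.1 and 137 CPM in the *Mkx* group, and it was 3.19-fold lower in the former (log2 -1.67 ± 0.19 SE, edgeR adjusted p = 3.59e-06). *Satb1* stood at 257 and 288 CPM against 468 and 494 CPM, 1.77-fold lower in the *Ackr3* group (log2 -0.82 ± 0.14 SE, edgeR adjusted p = 0.000471). These 2 of 7 members were called lower, where 3.75% of the 11795 genes tested were, and *Prox1* was called higher (26 and 14 UMIs against 1 and 2; edgeR adjusted p = 0.0389), where 1.42% were. *Maf* stood at 778 and 878 CPM in the *Ackr3* group and 594 and 616 CPM in the *Mkx* group, with no call (log2 0.45 ± 0.16 SE, edgeR adjusted p = 0.136), but with the embryo as a block the adjusted p was 0.0365. *Sox6* differed by log2 -0.41 ± 0.14 SE (edgeR adjusted p = 0.114, and 0.042 with the block), and *Lhx6* by 0.03 ± 0.22 SE (edgeR adjusted p = 0.978).

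The small *Sst* group held 143 and 268 CPM of *Lhx6*, 410.1 and 476 CPM of *Satb1*, 199 and 226 CPM of *Maf* and 6.21 and 6.10 CPM of *Npas1*. Its *Maf* and *Npas1* levels lay below those of both larger MGE-like groups in each embryo, on 40 cells in all. *Prox1* lay above both larger groups there, at 12.4 and 54.9 CPM, from 2 and 9 UMIs. When MGE-like cells were instead split by an *Sst* UMI (277 and 277 cells with one, 413 and 376 without), *Satb1* stood at 440.1 and 470.2 CPM with it and 262 and 303 CPM without, and *Npas1* at 109 and 110.1 CPM with it and 59.8 and 64.7 CPM without. *Maf* went the other way, at 589 and 667 CPM with an *Sst* UMI and 766 and 809 CPM without. *Lhx6* was near equal, at 265 and 295 CPM against 255 and 264 CPM. The split was not tested, and cells with an *Sst* UMI were deeper (median 7922 and 7078 UMIs against 5423 and 5923.5).

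Among the other GABAergic cells, the group led by *Nr3c2* (203 and 155 cells, mostly CGE-like) held 192 and 151 CPM of *Prox1*, 81.9 and 94.7 CPM of *Sp8*, 740 and 659 CPM of *Sox6* and 115 and 189 CPM of *Maf*. The group led by *Zfp385b* (123 and 217 cells, mostly LGE-type-like) held 142 CPM of *Sp8* in both embryos, 21.5 and 36.9 CPM of *Prox1*, 175 and 124 CPM of *Sox6* and 5.7 and 7.7 CPM of *Maf*. *Sp8* was thus high in both groups, 5 of the other 6 members differed, and *Lhx6* had 1 UMI in the *Nr3c2* group and 0 in the *Zfp385b* group. In the *Zfp385b* group, *Maf* was 21.6-fold lower (log2 -4.43 ± 0.33 SE, edgeR adjusted p = 3.35e-09), *Sox6* 4.81-fold lower (log2 -2.27 ± 0.16 SE, edgeR adjusted p = 1.79e-09) and *Prox1* 5.60-fold lower (log2 -2.49 ± 0.35 SE, edgeR adjusted p = 2.83e-05; -2.03 without embryo 4 and -3.15 without embryo 5). *Satb1* was 1.90-fold lower (edgeR adjusted p = 0.00409), *Npas1* held 2 UMIs against 196 (edgeR adjusted p = 2.73e-09), and *Sp8* was 1.60-fold higher (log2 0.67 ± 0.19 SE, edgeR adjusted p = 0.0343). In all, 5 of 7 members were lower, where 3.61% of genes were, and 1 was higher, where 3.93% were.

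A group led by *Zic4* mixed 224 LGE-type-like with 129 cycling GABAergic cells. It held 84.9 and 52.2 CPM of *Prox1*, more than the other mostly LGE-type-like groups in each embryo. LGE-type-like cells also held the groups led by *Gnrh1* (165 and 42 cells) and *Ebf1* (202 cells in all). *Sox6* stood at 903 and 901 CPM in the *Gnrh1* group and 25.0 and 18.5 CPM in the *Ebf1* group, a 40.8-fold difference (log2 5.35 ± 0.22 SE, edgeR adjusted p = 3.95e-13). *Lhx6* stood at 119.9 and 49.0 CPM in the *Gnrh1* group (225 UMIs) and had 3 UMIs in the *Ebf1* group (edgeR adjusted p = 1.31e-05). *Satb1* was 3.69-fold higher (log2 1.88 ± 0.26 SE, edgeR adjusted p = 2.56e-05) and *Maf* 4.57-fold higher (log2 2.19 ± 0.53 SE, edgeR adjusted p = 0.00794) in the *Gnrh1* group. The *Maf* value rested on 4 and 3 UMIs in the *Ebf1* group, and it was 2.81 without embryo 4 and 1.79 without embryo 5. These 4 of 7 members were higher, where 7.41% of genes were, and none was lower, where 4.36% were; *Prox1*, *Sp8* and *Npas1* had an adjusted p of 0.762, 0.533 and 0.899 in edgeR's test. The group led by *Top2a* (121 and 194 cells, 314 of them cycling GABAergic) held 74.1 and 64.2 CPM of *Prox1*, 69.9 and 74.2 CPM of *Sp8* and 529 and 522 CPM of *Sox6*, with *Lhx6* at 2.82 and 1.67 CPM (4 and 3 UMIs).

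**Figure D4:**
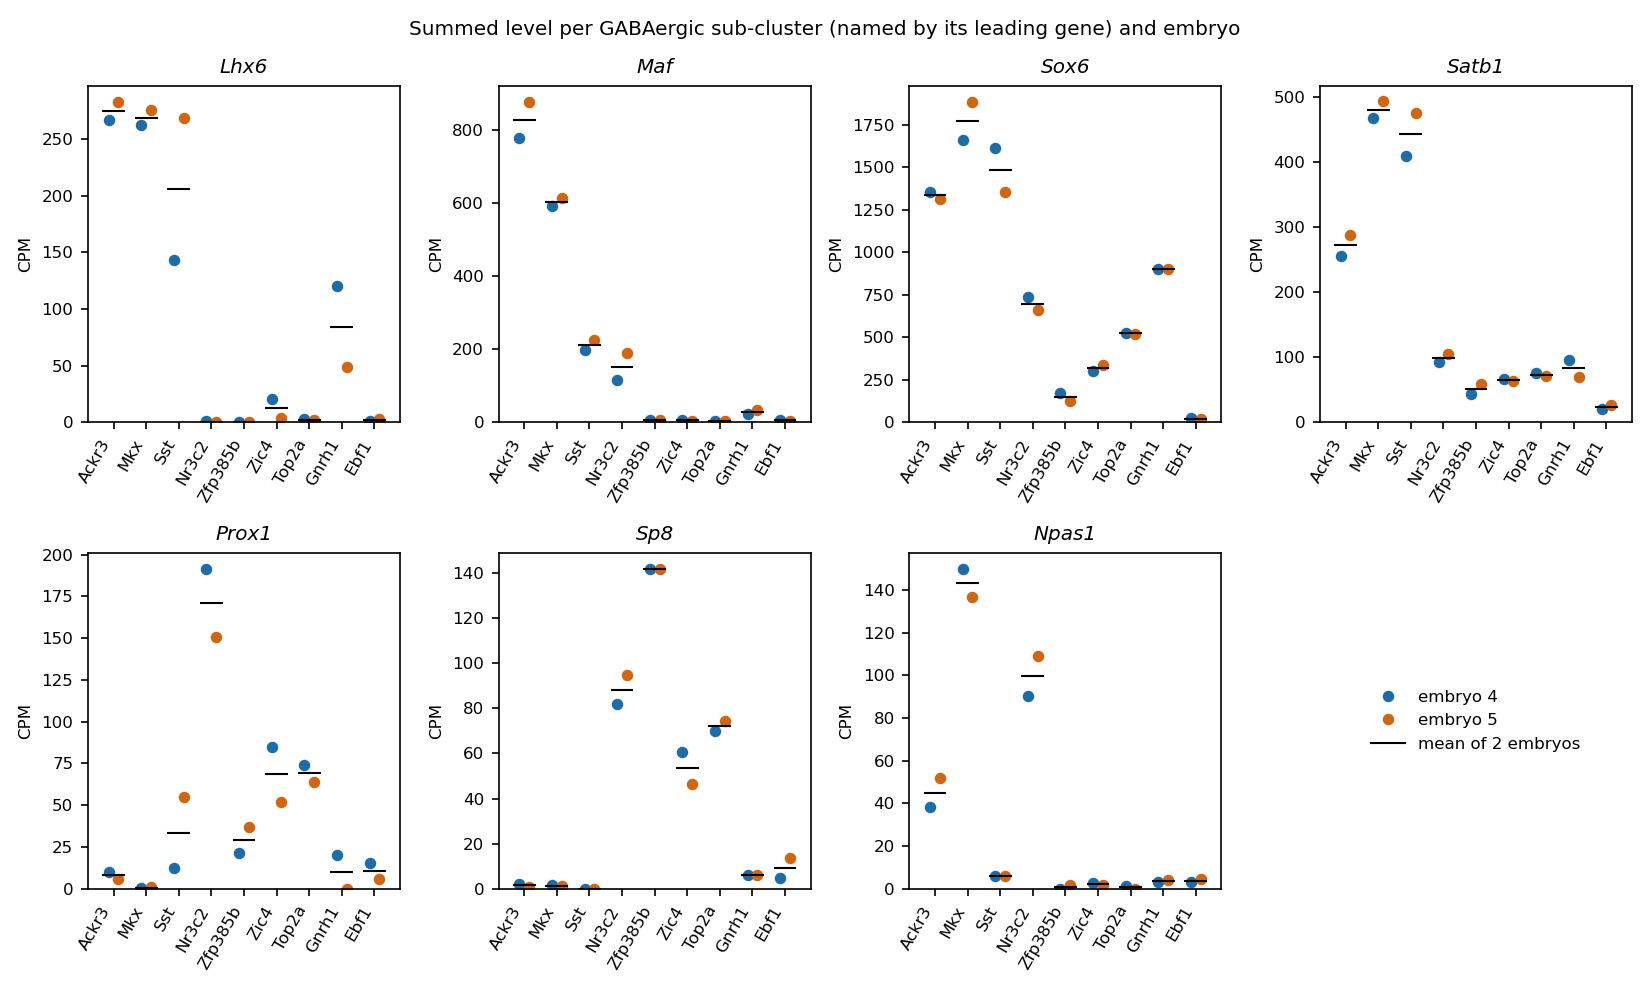
Summed level (CPM) of each member in 9 GABAergic sub-clusters, each named by its leading gene, with 1 point per embryo and a bar at the mean. *Npas1* peaks in the *Mkx* group, *Sp8* in the *Zfp385b* group, *Prox1* in the *Nr3c2* group, and *Lhx6* is high in the MGE-like groups and intermediate in the *Gnrh1* group.

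For context, 17 other transcription factors of the interneuron lineages were read in the same way, and 16 of them passed the filter on low counts (*Nkx6-2* did not). Between MGE-like and CGE-like cells, 3 were higher and 4 lower, where 3.65% and 3.12% of all genes were. Between MGE-like and LGE-type-like cells 8 were higher and 5 lower (7.63% and 11.5%), and between CGE-like and LGE-type-like cells 9 were higher and 4 lower (3.92% and 7.18%). *St18* stood at 370.5 and 196 CPM in CGE-like cells against 21.7 and 14.0 CPM in MGE-like cells (log2 -3.90 ± 0.25 SE, edgeR adjusted p = 5.75e-07), the same direction as *Prox1* between these 2 classes. Between CGE-like and LGE-type-like cells, *Zfhx3* went the other way from *Npas1*, with 573 and 586 CPM in LGE-type-like cells and 19.4 and 19.0 CPM in CGE-like cells (log2 -4.91 ± 0.28 SE, edgeR adjusted p = 2.02e-07). *Lhx8* and *Nkx2-1*, which act with or upstream of *Lhx6*, stood at 95.7 and 21.3 CPM and at 40.2 and 6.70 CPM in LGE-type-like cells, higher in embryo 4 as *Lhx6* was.

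The genes whose levels ran most closely with each member were found over 26 sums (13 classes in 2 embryos) and 6279 genes, as Pearson's r of log2(CPM + 5). The sums share libraries and differ in depth, so r is given as a description. *Lhx6* ran with *Sst* (r = 0.96), *Cacng3* (0.95) and *Cntnap3* (0.92), *Maf* with *Dgkg* (0.99), *4930555F03Rik* (0.94) and *Gm2516* (0.93), and *Npas1* with *Gm2516* (0.98), *Gm45341* (0.97) and *Gm45321* (0.97). *Prox1* ran with *Crb1* (0.95), *Pbx3* (0.85) and *Smoc1* (0.84), and *Sp8* with *Pou3f4* (0.90), *Meis1* (0.89) and *Crb1* (0.88). *Sox6* ran with *Sox2* (0.92), *Alk* (0.91) and *Ubr3* (0.90), and *Satb1* with *Spopl* (0.84), *Ttc17* (0.83) and *Zfp280d* (0.82). Among the members themselves, *Maf* and *Npas1* (0.95) and *Prox1* and *Sp8* (0.90) were the closest pairs, and *Lhx6* with *Prox1* (0.01) and with *Sp8* (0.04) the most distant.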

How the data were processed

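Single-cell 3′ RNA sequencing of the cortex of 2 E16.5 embryos was read from the count matrices that the authors deposited (whole UMI counts per gene and cell, Cell Ranger 7.0.0 and mm10 in the submitters' processing notes, 7.1.0 in the matrix headers; whether intronic reads were counted is not given in the sources used here). The study's methods describe droplet libraries of an earlier embryonic stage, while its supplement also reports single-cell data of E16.5 cortices and names a mouse strain for them. Stage and group follow the labels here. Cells with under 1000 detected genes (1772 and 765) or over 10% mitochondrial UMIs (174 and 56) and simulated-neighbour doublets (947 and 1052) were removed. The rest were clustered on 2000 variable genes, 30 principal components and 20 neighbours (scanpy 1.11.5, Leiden resolution 1; sub-clusters 0.5), with the 7 members and 17 other factors left out, and classes were named from marker lists. Members, lists and markers were chosen with earlier results of these data known, and the rule that named the classes was set after the clusters were seen.

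UMIs were summed per embryo and class (12 sums of 6 broad classes in 1 fit). edgeR 4.0.16 (R 4.3.3) fitted them with TMM scaling, filterByExpr, the quasi-likelihood test and Benjamini-Hochberg adjustment, with class as the only covariate; the script was checked on simulated counts. The sums of the smallest class held 896256 UMIs, so 1 UMI there is about 1 CPM. With 2 embryos, p-values rest on 1 pair of animals per class. Same-numbered sums come from the same embryo, so the design is paired, and class deviations of the same embryo correlated with r between 0.0208 and 0.248 over 15 pairs of classes. Because classes were set by clustering the same cells, the tests describe how the members follow classes set by other genes. Named are the members, the marker and factor lists, the 3 genes most like each member in pattern, and leading genes of sub-clusters. The sub-cluster pairs were chosen after their values were seen. The *Gnrh1* sub-cluster was left out of LGE-type-like cells, as an alternative, because of its *Lhx6* level. The values of some of the listed factors are not reported here. DESeq2 1.42.0, other scaling, cell filters, resolutions, an embryo block and leaving out each embryo were tried as alternatives. Promoter sequences and coordinates come from RefSeq on GRCm38.p6.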

Additional observations from a re-analysis of the deposited data

Results flagged for a closer look

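*Maf*, a factor that macrophages and other non-neural cells also use, gave a signal in 2 cell groups outside the comparisons of neural classes. Microglia-like cells held 155 *Maf* UMIs in 23 cells, or 675 CPM over both embryos, where a count of 0 would allow up to 13.1 CPM. Most of it came from embryo 4, which held 149 of the UMIs and 21 of the cells, against 2 cells in embryo 5. Fibroblast-like cells, all 53 of them from embryo 5, held 96 *Maf* UMIs, or 180.5 CPM, where a count of 0 would allow up to 5.64 CPM. Summed microglia markers lay between 7 and 20 CPM in the broad classes, and their part in the *Maf* levels of GABAergic cells was not tested.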

How the results depend on the processing

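Several values moved with the cells placed in the CGE-like class. With at least 500 detected genes per cell, with at least 1500, with doublets kept and with the members among the clustered genes, the genes called between MGE-like and CGE-like cells rose from 1049 to 2132, 1984, 1642 and 2131, and the other transcription factors called from 7 to 11 (at least 500), 11 (at least 1500) and 12 (members clustered). *Npas1* then changed sign, to 0.88, 0.84, 0.30 and 0.85 on the log2 scale. A fit of only the 2 classes called 982 genes between CGE-like and LGE-type-like cells instead of 1719. Other sign changes of log2 fold changes were *Sox6* between CGE-like and LGE-type-like cells (-0.00385 with at least 1500 genes, -0.0741 with the members clustered), *Sp8* between the same classes (-0.0924 at resolution 2), *Lhx6* in LGE-type-like cells against excitatory neurons (-1.05 at resolution 2) and RGC-like cells (-0.55), *Maf* there against RGC-like cells (-0.0452), *Satb1* there against excitatory neurons (0.0942 with at least 1500 genes, 0.25 at resolution 0.6, 0.22 with the members clustered, 0.0688 in cells with a *Gad1* or *Gad2* UMI, and -0.31 to 0.11 without 1 embryo) and against RGC-like cells (0.0128 with the members clustered), and *Sox6* between MGE-like and RGC-like cells (-0.0794 with doublets kept). For all of these the cause was not tested. A resolution of 0.6 gave no CGE-like class and so no CGE-like comparison.

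Of 861 further values of single members, 805 kept their direction and their side of the threshold, 27 lost and 13 gained a call and 16 changed sign. With the embryo as a block, no call of a member between classes changed, and 1183 genes were called between MGE-like and CGE-like cells instead of 1049. The scaling by DESeq2's size factors shifted the median of all genes by at most 0.0972 on the log2 scale. Leaving out 1 embryo leaves no spread to test, so those values carry no p. Of them, 60 stayed within 1 SE of the main value, 57 kept their sign but moved by more than 1 SE, and 1 changed sign. CGE-like sums were the shallowest, at 977161 and 896256 UMIs, and a level under a few CPM there cannot be told from 0.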

Other observations

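In cells thinned to 2000 UMIs, members could be read together in the same cell. The values are descriptions without a test, given for some pairs only, and the other pairs are not reported here. In MGE-like cells, *Satb1* and *Npas1* occurred together in 47 and 62 cells, where the product of their shares gave 29.1 and 39.2, and *Lhx6* and *Satb1* in 121 and 133 cells, where it gave 108 and 115. The class mixes the *Ackr3* and *Mkx* groups, which differed in both *Satb1* and *Npas1*. The part of this mixing in the joint counts was not tested. In CGE-like cells, *Maf* and *Prox1* occurred together in 0 and 3 cells, where the product gave 4.12 and 7.1, and *Sox6* and *Npas1* in 4 and 7 cells, where it gave 11.2 and 12.7. *Sox6* and *Prox1* occurred together in 20 and 17 CGE-like cells, where the product gave 19.1 and 12.7.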
